A study of Mus musculus with 12 samples.

Results

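Prostaglandins are short-lived lipids that cells make from arachidonic acid and that act on receptors at the surface of the same or neighbouring cells. A phospholipase frees arachidonic acid from membranes, a cyclooxygenase (Ptgs1 or Ptgs2) turns it into the intermediate PGH2, and a terminal synthase turns PGH2 into a single end product such as PGE2 or prostacyclin. In fat, PGE2 is known for restraining lipolysis, PGF2alpha for blocking the differentiation of preadipocytes, and prostacyclin for promoting it. The genes described here are 10 of this pathway: the cyclooxygenases Ptgs1 and Ptgs2, the PGE2 synthases Ptges, Ptges2 and Ptges3, the prostacyclin synthase Ptgis, the receptors Ptger3, Ptger4 and Ptgfr, and the inactivating enzyme Hpgd. They were taken by symbol from the 27473 features of the count table, where each had 1 feature. The set was chosen by the fold changes of Ptgs2 in both comparisons, known from earlier work on these data, and was filled up with synthases, receptors and an inactivating enzyme of the same pathway.

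The cells were 3T3-L1 adipocytes, a mouse fibroblast line differentiated in culture with dexamethasone, IBMX and insulin, so all groups share that hormone cocktail and the lentivirus given on day 8. RNA was sequenced from 12 libraries in 4 groups of 3: GFP (a pCDH vector with green fluorescent protein), Dnmt3a (the same vector with the DNA methyltransferase Dnmt3a), shScr (a scrambled hairpin) and shDnmt3a (a hairpin against Dnmt3a, the sources used here not saying which). Per the labels the virus was on the cells for 2 days and RNA was taken 4 days after transduction. The study asked which genes follow Dnmt3a in adipocytes, so Dnmt3a was compared with GFP (overexpression) and shDnmt3a with shScr (knock-down). Nothing in the labels ties the 3 libraries of a group to different cultures, and the p-values below therefore describe library-to-library spread, possibly technical in origin.

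Levels are given as counts-per-million (CPM), scaled over all 12 libraries by TMM, a method that corrects for differences in RNA composition. Each ± is the SD over 3 libraries. Fold changes come from edgeR's quasi-likelihood test, fitted on all features that passed a filter on low counts, with p-values adjusted by the Benjamini-Hochberg method over all features tested. Genes with an adjusted p below 0.05 were called. Library totals ran from 29084732 to 47341091 counts. The Dnmt3a transcript averaged 93.3 ± 3.27 CPM with GFP against 2756 ± 29.6 CPM with the Dnmt3a vector, and 82.2 ± 3.94 CPM with the scrambled hairpin against 39.8 ± 0.849 CPM with the knock-down hairpin, so each manipulated group lay on the side of its label. Of the adipocyte markers, Adipoq and Fabp4 were abundant in every group, while Lep stood at 0.294 to 0.461 CPM by group mean. Of the 9 macrophage and leukocyte markers, Emr1 (0 counts in every library) and Ptprc (means of 0.128 to 0.157 CPM) were at or near 0, and Csf1r, Itgam and Lyz2 had means under 1 CPM. The other 4 were present, with group means of 2.79 to 17.8 CPM for Mpeg1, 2.96 to 11.3 for Cd53, 2.14 to 6.14 for Cd74 and 4.59 to 6.21 for Cd14. The summed level of the 4 endothelial markers stayed between 1.07 and 2.07 CPM.

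Ptgs2, the inducible cyclooxygenase, differed most among the 8 genes that could be measured: it was about 3-fold lower when Dnmt3a was raised and about 3-fold higher when Dnmt3a was lowered. Its GFP libraries held 12.4, 12.9 and 13.4 CPM, and its Dnmt3a libraries 3.11, 4.98 and 3.53 CPM. Its shScr libraries held 3.65, 3.11 and 2.66 CPM, and its shDnmt3a libraries 9.66, 9.72 and 10.9 CPM. Every Dnmt3a library thus lay below every GFP library, and every shDnmt3a library above every shScr library. The fitted log2 fold change was -1.76 ± 0.11 (SE) on overexpression and 1.68 ± 0.11 on knock-down. Ptgs2 was included with its change already known, so these values are a description and carry no test. The controls, GFP in an expression vector and a scrambled hairpin, were themselves far apart for Ptgs2: the GFP mean was 4.11-fold the shScr mean, and the knock-down libraries lay below those of GFP. Dnmt3a and shScr libraries overlapped at the low end of the order. Ptgs2 lies at chr1:151947254-151955140 on the plus strand of mm9 (GENCODE vM1 gene model), with Pla2g4a, the cytosolic phospholipase that supplies its substrate, 138833 bases away on the same chromosome.

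**Figure D1:**
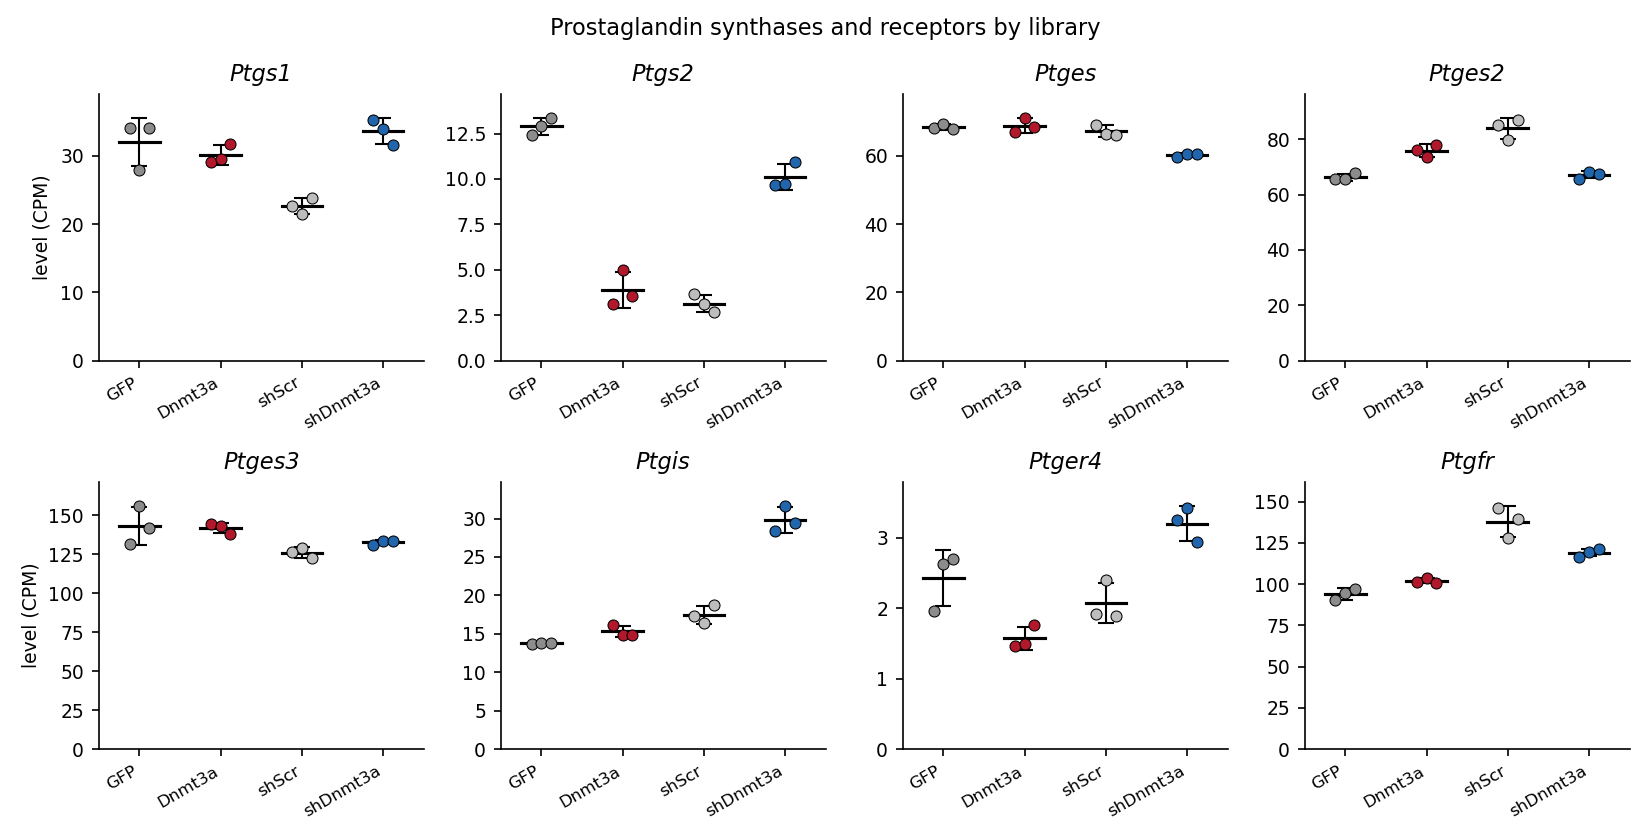
Level in CPM (vertical axes, each starting at 0) of the 8 measured genes in each library of the 4 groups (horizontal axes). Points are libraries, lines are means and bars are the SD of 3 libraries. Ptgs2 is high in GFP and shDnmt3a and low in Dnmt3a and shScr, and Ptgis is highest in shDnmt3a.

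Ptgs1 (chr2:36085946-36107792, plus strand), the cyclooxygenase that most cells make constitutively, rose on knock-down. Its shScr libraries held 22.6, 21.4 and 23.8 CPM and its shDnmt3a libraries 35.3, 34.0 and 31.5 CPM, without overlap. The rise was a log2 of 0.58 ± 0.06 on knock-down (edgeR adjusted p = 1.63e-07). On overexpression its GFP libraries held 34.1, 27.98 and 34.0 CPM and its Dnmt3a libraries 29.03, 29.5 and 31.8 CPM. These overlapped, and the log2 fold change of -0.09 (95% interval -0.22 to 0.04) did not pass (edgeR adjusted p = 0.307). Without GFP replicate 2, the lowest GFP library, it passed (log2 fold change -0.18, edgeR adjusted p = 0.0203). In the order of the groups, shDnmt3a, GFP and Dnmt3a did not differ between neighbours, and shScr stood below Dnmt3a (edgeR adjusted p = 1.49e-05 in a fit of all 12 libraries). In that fit, the share of the 14491 features called in either direction was 26% for Dnmt3a against GFP, 45.4% for shDnmt3a against shScr, 46.5% for shDnmt3a against GFP, 41.6% for shScr against Dnmt3a and 45% for shDnmt3a against Dnmt3a.

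Levels of different genes are compared here per kilobase of feature length (RPKM, from the same scaled counts). Ptgs1 exceeded Ptgs2 in every library. The ratio of Ptgs1 to Ptgs2 RPKM was 3.601 ± 0.426 in GFP, 11.7 ± 2.72 in Dnmt3a, 10.6 ± 2.06 in shScr and 4.84 ± 0.589 in shDnmt3a. The GFP and shDnmt3a libraries lay between 3.14 and 5.29, and the Dnmt3a and shScr libraries between 8.58 and 13.5. Since Ptgs2 enters this ratio, it is a description of the same change and not a further test.

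The start of the genes is shown because Dnmt3a adds methyl groups to cytosine in CG pairs. It is given for the 3 members that were higher on knock-down and had an entry in the RefSeq promoter table. Ptgis was also higher but had no entry there, and its window was not read, although the starts used below are those of GENCODE vM1. The lines give the 250 bases before the start, 5′ to 3′, with each CG in capitals, read from NCBIM37 (the same assembly as mm9): Ptgs2 at chr1:151947004-151947253 on the plus strand, Ptgs1 at chr2:36085696-36085945 on the plus strand and Ptger4 at chr15:5194188-5194437 on the minus strand.
Ptgs2: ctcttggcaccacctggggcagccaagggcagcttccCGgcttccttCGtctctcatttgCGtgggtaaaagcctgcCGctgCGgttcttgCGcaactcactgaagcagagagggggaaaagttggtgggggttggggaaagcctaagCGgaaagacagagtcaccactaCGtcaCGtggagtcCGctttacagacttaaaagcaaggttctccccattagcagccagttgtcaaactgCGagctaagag
Ptgs1: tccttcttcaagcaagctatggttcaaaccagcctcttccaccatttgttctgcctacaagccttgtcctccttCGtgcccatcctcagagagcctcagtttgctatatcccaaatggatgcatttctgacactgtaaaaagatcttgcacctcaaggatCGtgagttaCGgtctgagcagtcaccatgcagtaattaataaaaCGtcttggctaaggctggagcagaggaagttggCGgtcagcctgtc
Ptger4: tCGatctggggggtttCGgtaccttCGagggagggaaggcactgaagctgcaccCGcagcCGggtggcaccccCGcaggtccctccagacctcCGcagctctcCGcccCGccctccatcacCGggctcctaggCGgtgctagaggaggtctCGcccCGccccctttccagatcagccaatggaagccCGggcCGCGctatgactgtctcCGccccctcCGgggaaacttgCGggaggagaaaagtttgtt

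The number of CG pairs was 11 in the Ptgs2 window, 5 in that of Ptgs1 and 19 in that of Ptger4, against a median of 9 over 22354 coding genes with the same window (quartiles 3 and 18). Among the 9 genes read, the counts ran from 5 (Ptgs1) to 34 (Ptges3), with Ptges3, Ptger3 (22) and Ptger4 above the upper quartile and none below the lower one. Methylation itself was not measured in these libraries.

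The windows were searched on both strands for the letters of motifs bound by known regulators of prostaglandin genes. In the stretch of Ptgs2 below, chr1:151947087-151947187 on the plus strand, capitals mark the matches: TTNNGNAA, the letters of C/EBP factors, at 162 to 155 and 118 to 111 bases before the start, and CGTCA, the shorter core of the cAMP response element, at 80 to 76 bases, which overlaps the E-box CACGTG at 77 to 72 bases.
Ptgs2 motif stretch: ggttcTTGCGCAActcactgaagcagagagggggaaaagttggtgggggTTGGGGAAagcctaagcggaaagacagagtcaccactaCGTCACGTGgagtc
Of all 22354 windows, 35.2% held TTNNGNAA, 19.4% held CGTCA and 6.54% held CACGTG. Of the 9 genes read, 5 held TTNNGNAA (Ptgs2, Ptges, Ptges2, Ptgfr and Hpgd), Ptgs2 alone held CGTCA, and Ptgs2 and Ptges2 held CACGTG. Ptges3 held the NF-kB consensus, as did 7.74% of all windows. None of the 9 held the full element TGACGTCA (1.94% of all windows) or TATAAA (12.3%), and the windows of Ptgs1, Ptger3 and Ptger4 held none of the motifs searched. A match gives letters only. When the start was instead taken from RefSeq (GRCm38.p6), the 250 bases before it held neither CGTCA nor CACGTG for Ptgs2.

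Of the 3 PGE2 synthases, Ptges fell slightly on knock-down, Ptges2 moved in opposite directions in the 2 comparisons, and Ptges3 did not pass either test. Ptges (chr2:30744991-30785383, minus strand), the membrane enzyme that is usually induced together with Ptgs2, stood at 67.2 ± 1.73 CPM in shScr and 60.2 ± 0.591 in shDnmt3a. It fell by 0.15 on the log2 scale on knock-down (SE 0.04, edgeR adjusted p = 0.00508), and the libraries did not overlap. On overexpression Ptges held 68.5 ± 0.818 CPM in GFP and 68.8 ± 2.11 in Dnmt3a (log2 fold change 0.01, 95% interval -0.08 to 0.09, edgeR adjusted p = 0.948).

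Ptges2 (chr2:32251416-32258259, plus strand), another membrane-bound PGE2 synthase, stood at 65.5, 65.5 and 67.7 CPM in GFP and at 76.2, 73.4 and 77.9 CPM in Dnmt3a. It stood at 85.0, 79.8 and 87.1 CPM in shScr and at 65.7, 68.3 and 67.6 CPM in shDnmt3a. Neither pair of groups overlapped. It rose by a log2 of 0.20 ± 0.04 on overexpression (1.15-fold, edgeR adjusted p = 0.000488) and fell by 0.31 on the log2 scale on knock-down (SE 0.04, edgeR adjusted p = 4.45e-06). Ptges2 was thus higher with more Dnmt3a within both comparisons, the reverse of Ptgs2. GFP and shDnmt3a libraries overlapped at the low end of its order. At the high end shScr stood above Dnmt3a (edgeR adjusted p = 0.00532 in the fit of all 12 libraries). The distance between the controls was again larger than either comparison, with Ptges2 higher in shScr than in GFP by a log2 of 0.34.

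Ptges3 (chr10:127496010-127514328, plus strand), the cytosolic enzyme that is better known as the Hsp90 co-chaperone p23, had the highest level of the 10 genes, between 64.5 and 73.2 RPKM by group, above at least 93.6% of the features tested. Its group means in CPM were 143 ± 11.98 in GFP, 142 ± 3.09 in Dnmt3a, 126 ± 3.45 in shScr and 133 ± 1.41 in shDnmt3a. Neither comparison passed the test, with edgeR adjusted p = 0.845 on overexpression (log2 fold change -0.02, 95% interval -0.11 to 0.08) and 0.0793 on knock-down (0.08, 95% interval 0.00 to 0.16). No neighbours in its order of groups differed by the test.

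Ptgis (chr2:167017305-167066104, minus strand), the enzyme that makes prostacyclin from PGH2, rose on knock-down. Its shScr libraries held 17.3, 16.4 and 18.7 CPM and its shDnmt3a libraries 28.4, 31.6 and 29.4 CPM. All shDnmt3a libraries lay above all the others of the series. The log2 fold change was 0.78 ± 0.07 (1.72-fold, edgeR adjusted p = 7.73e-09). On overexpression the GFP libraries held 13.7, 13.8 and 13.8 CPM and the Dnmt3a libraries 16.2, 14.9 and 14.9 CPM. They did not overlap, but the log2 fold change of 0.15 (95% interval 0.01 to 0.30) did not pass over all features (edgeR adjusted p = 0.11). In the order of the groups shDnmt3a stood above shScr and shScr above Dnmt3a (edgeR adjusted p = 0.028 in the fit of all 12 libraries), whereas Dnmt3a and GFP did not differ by the test. By the GENCODE gene models 156 bases of Ptgis exons overlap 1110018N20Rik on the other strand. The kit named in the labels does not mark strand, so strand cannot assign reads from such bases to either gene. How many of these bases lie in the counted feature was not tested.

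Ptgis and Ptges stood at nearly the same level per length on knock-down and not in the other groups. The ratio of Ptges to Ptgis RPKM was 2.39 ± 0.0257 in GFP, 2.17 ± 0.162 in Dnmt3a, 1.85 ± 0.139 in shScr and 0.972 ± 0.0454 in shDnmt3a. The shDnmt3a libraries lay between 0.921 and 1.01, below every other library.

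**Figure D2:**
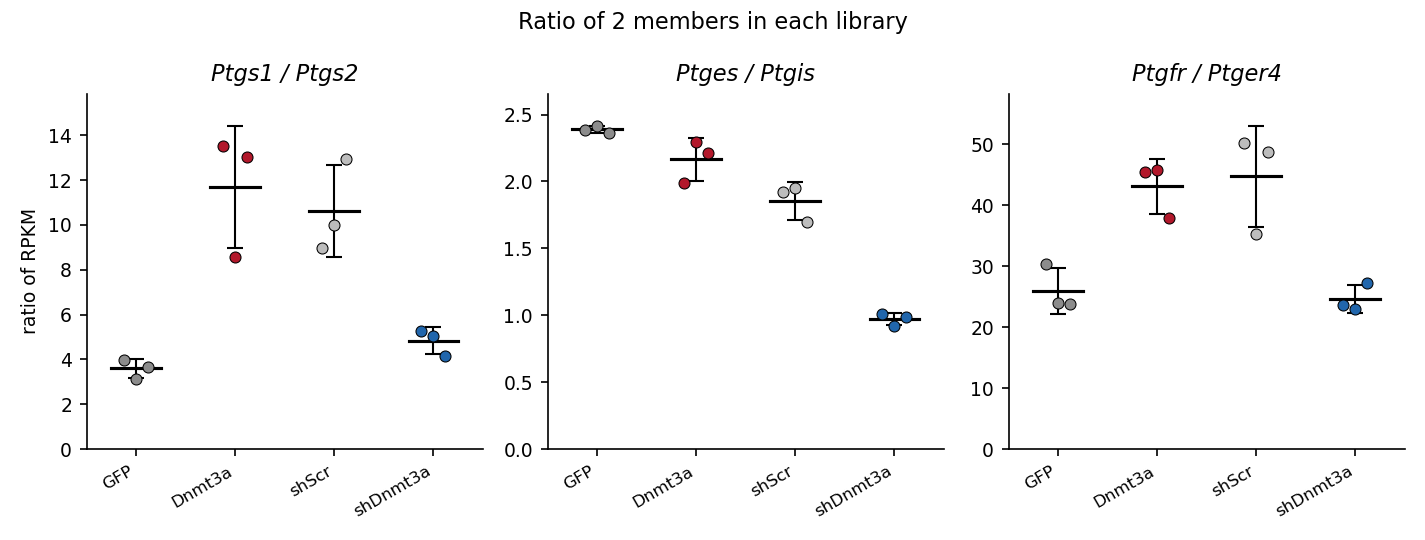
Ratio of the RPKM of a pair of genes in each library (vertical axes, each starting at 0), by group (horizontal axes). Points are libraries, lines are means and bars are the SD of 3 libraries. The Ptges to Ptgis ratio of shDnmt3a lies near 0.972, while the Ptgs1 to Ptgs2 and Ptgfr to Ptger4 ratios are high in Dnmt3a and shScr.

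Of the receptors, Ptger4 and Ptgfr moved in opposite directions to each other in both comparisons. Ptger4 (chr15:5156661-5194187, minus strand), the PGE2 receptor that raises cAMP, was low everywhere. Its GFP libraries held 1.97, 2.62 and 2.70 CPM and its Dnmt3a libraries 1.47, 1.49 and 1.75 CPM. Its shScr libraries held 1.92, 2.40 and 1.89 CPM and its shDnmt3a libraries 3.25, 3.42 and 2.93 CPM. Neither pair overlapped. It fell by 0.61 on the log2 scale on overexpression (SE 0.18, edgeR adjusted p = 0.00963) and rose by 0.63 ± 0.15 on knock-down (1.55-fold, edgeR adjusted p = 0.00149). Without GFP replicate 3 the fall was 0.53 with an edgeR adjusted p of 0.0506. Both directions are those of Ptgs2. In the fit of all 12 libraries shDnmt3a stood above GFP (edgeR adjusted p = 0.0198), and the other neighbours in the order did not differ by the test. In the GENCODE gene model 1097 bases of Ptger4 exons overlap Ttc33 and Gm15937 on the other strand, and how many of these lie in the counted feature was not tested.

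Ptgfr (chr3:151461882-151500594, minus strand), the receptor for PGF2alpha, was the most abundant receptor of the list. Its GFP libraries held 90.3, 94.9 and 97.2 CPM and its Dnmt3a libraries 101, 104 and 101 CPM. Its shScr libraries held 146, 128 and 140 CPM and its shDnmt3a libraries 117, 119 and 121 CPM. The compared groups did not overlap. It rose by a log2 of 0.11 ± 0.04 on overexpression (1.08-fold, edgeR adjusted p = 0.0326) and fell by 0.20 on the log2 scale on knock-down (SE 0.04, edgeR adjusted p = 0.000626). The call on overexpression was lost when any Dnmt3a library or GFP replicate 1 was left out (edgeR adjusted p from 0.051 to 0.177). All neighbours in its order, shScr, shDnmt3a, Dnmt3a and GFP from high to low, differed by the test. As for Ptges2, the distance between the controls was larger than either comparison: shScr stood above GFP by a log2 of 0.55.

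The ratio of Ptgfr to Ptger4 RPKM was 26.0 ± 3.75 in GFP and 43.1 ± 4.50 in Dnmt3a. It was 44.8 ± 8.28 in shScr and 24.7 ± 2.29 in shDnmt3a. Neither pair of groups overlapped.

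Ptger3 (chr3:157229856-157307722, plus strand), the PGE2 receptor that lowers cAMP and is known in mature fat, and Hpgd (chr8:58773349-58799843, plus strand), the dehydrogenase that inactivates prostaglandins, were at the limit of detection. Ptger3 had 0 to 4 counts per library, and 0 in all GFP libraries. Hpgd also had 0 to 4 counts per library. A count of 3 corresponds to 0.0627 to 0.107 CPM, so differences in these genes were not detectable at this depth, and neither passed the filter. Such limits cover counting error only.

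**Figure D3:**
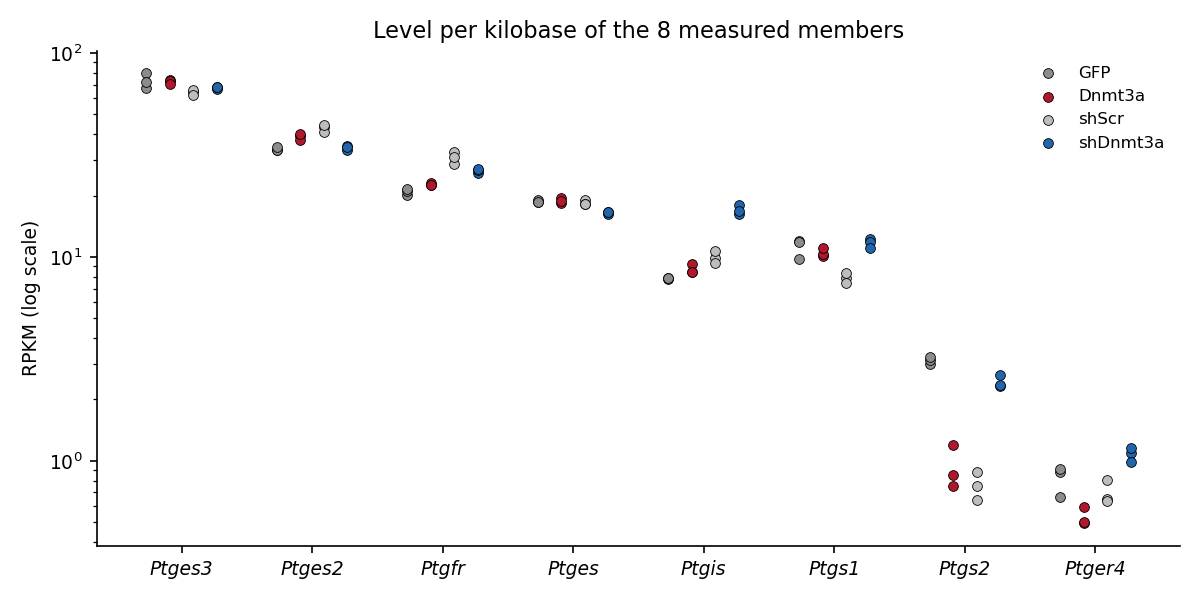
Level per kilobase (RPKM, log scale on the vertical axis) of the 8 measured genes (horizontal axis, from high to low mean), with each library as a point coloured by group. Ptges3 is highest, between 64.5 and 73.2 by group mean, and Ptgs2 and Ptger4 are lowest.

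Apart from Ptgs2, 7 of the genes were tested. On overexpression 3 of them were called, 2 higher (Ptges2 and Ptgfr) and 1 lower (Ptger4), where 14.3% of all 14168 features tested were called higher and 12.9% lower (27.2% in either direction). Their median log2 fold change was 0.01, against -0.01 over all features. On knock-down 6 of the 7 were called, 3 higher (Ptgs1, Ptgis and Ptger4) and 3 lower (Ptges, Ptges2 and Ptgfr), where 23.3% of all 14115 features were called higher and 22.5% lower (45.8% in either direction). Their median was 0.08, against 0.00 over all features. Between the controls, shScr against GFP in the fit of all 12 libraries, 5 of the 7 were called, with Ptges2, Ptgis and Ptgfr higher and Ptgs1 and Ptges3 lower, where 46.5% of 14491 features were called in either direction (23.7% higher and 22.8% lower). These controls are shared with the other comparisons, and the kind of construct and the group cannot be told apart in it.

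**Figure D4:**
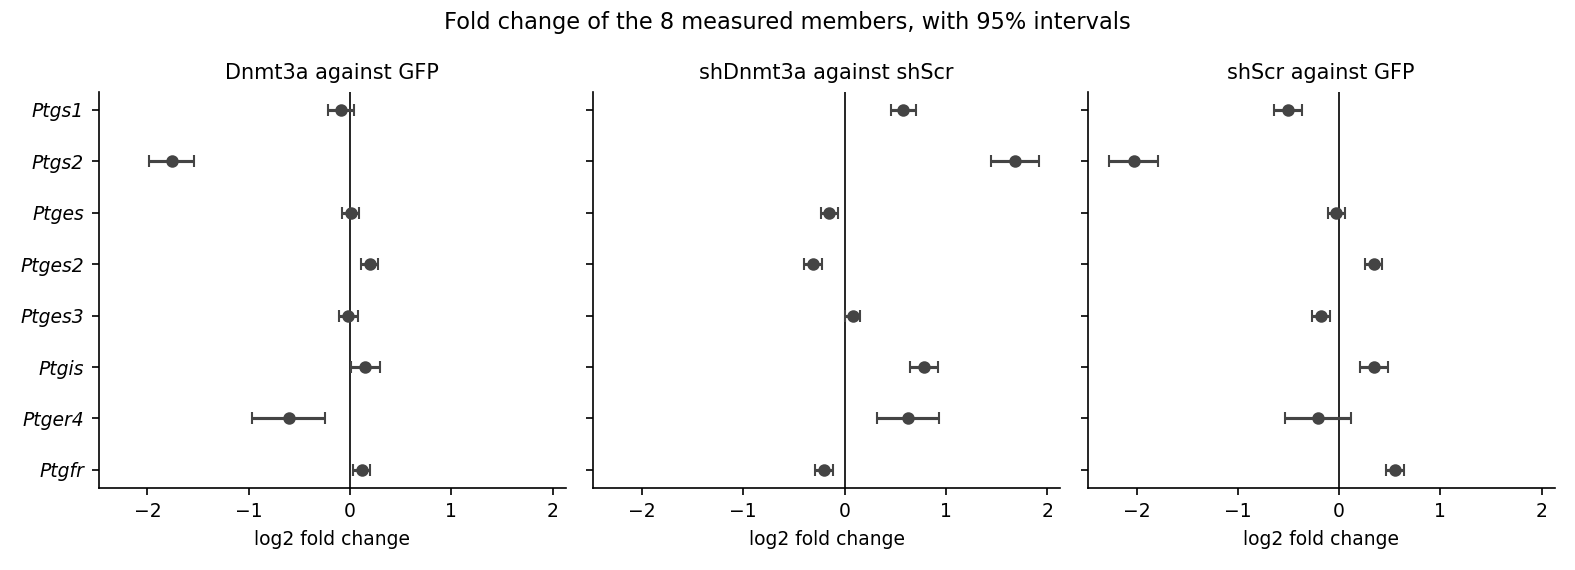
Log2 fold change (horizontal axes) of the 8 measured genes in Dnmt3a against GFP, shDnmt3a against shScr and shScr against GFP. Points are fitted values and bars 95% intervals. Ptgs2 and Ptger4 lie left of 0 on overexpression and right of 0 on knock-down, and Ptges2 and Ptgfr the other way round, by smaller amounts.

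The genes whose level varied most like a member were ranked by Pearson's r of log2 CPM over the 12 libraries, among 12036 genes with a mean of at least 1 CPM, for those of the 8 tested members whose highest group mean was at least 2 times the lowest, which were 3. For Ptgs2 these were Aldh1l2 (r = 0.977), Tnc (0.971) and Efnb2 (0.966). For Ptgis they were Epb4.1l5 (0.991), Pskh1 (0.988) and Cyb5d2 (0.988), and for Ptger4 Tmem39a (0.941), Lin28b (0.940) and Tnks (0.929). The 12 points share 4 groups of 3 libraries, so r is given as a description without a p. It also leaves out the size of a change. Ptgs2 had a 4.11-fold range of group means, while those of Aldh1l2 ran from 67.6 to 87.2 CPM. Those of Tnc ran from 18.8 to 38.9 CPM and those of Efnb2 from 3.29 to 8.61 CPM.

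The rest of the prostanoid pathway was described from a list of 36 genes, of which 29 were tested. On overexpression 9 were called, 5 higher and 4 lower, which is 31.0% of those tested beside 27.2% of all features. On knock-down 16 were called, 5 higher and 11 lower, which is 55.2% beside 45.8%. Their median log2 fold change on knock-down was -0.21, against 0.00 over all features. The genes not measured were the phospholipases Pla2g4f, Pla2g2f, Pla2g5, Pla2g10 and Pla2g12b and the synthases Ptgds and Akr1c18.

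Of the phospholipases, 11 were tested, with 4 called on overexpression (2 higher, 2 lower) and 7 on knock-down (3 higher, 4 lower), which is 36.4% and 63.6% of those tested beside 27.2% and 45.8% of all features. Pla2g2e, a secreted phospholipase, stood at 11.1, 11.8 and 13.2 CPM in shScr and 20.5, 18.99 and 19.5 CPM in shDnmt3a and rose by a log2 of 0.72 ± 0.07 (edgeR adjusted p = 1.24e-07). Pla2g7, which hydrolyses platelet-activating factor rather than membrane arachidonate, stood at 2.73, 2.66 and 2.02 CPM in shScr and 4.61, 4.26 and 4.26 CPM in shDnmt3a and rose by 0.82 ± 0.13 (edgeR adjusted p = 4.57e-05). Neither pair of groups overlapped. Pla2g4c, a calcium-independent cytosolic phospholipase, fell by 1.16 on the log2 scale on overexpression (SE 0.37, edgeR adjusted p = 0.0179), but on counts of 19 to 21 in GFP and 6 to 8 in Dnmt3a. Only its GFP counts reached the filter's minimum of 10, so Pla2g4c entered the test through the group where it is higher.

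Of the other terminal synthases, 6 were tested, with 3 called on overexpression, all higher, and 4 on knock-down (1 higher, 3 lower), or 50% and 66.7% beside the same shares of all features. Hpgds, the PGD2 synthase of haematopoietic cells, stood at 7.23, 7.59 and 6.93 CPM in GFP and 8.77, 11.3 and 9.86 CPM in Dnmt3a. It stood at 5.19, 5.72 and 4.45 CPM in shScr and 9.55, 9.39 and 9.22 CPM in shDnmt3a. It rose in both comparisons, by a log2 of 0.45 ± 0.09 on overexpression (edgeR adjusted p = 0.000328) and 0.87 ± 0.10 on knock-down (edgeR adjusted p = 4.86e-07). On knock-down, 3 of the 7 macrophage and leukocyte markers tested also rose (Cd53, Cd74 and Cd14) and 1 fell (Mpeg1), 57.1% in all beside 45.8% of all features, and the summed level of all 9 was 28.2 to 30.7 CPM in shScr and 30.9 to 32.4 in shDnmt3a. On overexpression Cd53 rose and Cd74 fell (28.6% of the markers tested, beside 27.2%), with sums of 19.6 to 20.7 CPM in GFP and 20.7 to 21.1 in Dnmt3a. Of the 9 markers, Emr1 had 0 counts in every library. The relation of these markers to the Hpgds level was not tested. In the RNA of a whole culture, the number of cells that express a gene and its RNA per cell cannot be told apart. Akr1b3, an aldose reductase that can make PGF2alpha, stood at 333, 322 and 328 CPM in shScr and 205, 203 and 212 CPM in shDnmt3a. It fell by 0.66 on the log2 scale (SE 0.03, edgeR adjusted p = 7.99e-12). Its group means were 136 CPM in GFP and 153 CPM in Dnmt3a. All libraries of both hairpin groups, the knock-down included, thus lay above all those of GFP and Dnmt3a.

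Of the other receptors and the receptor regulator Ptgfrn, 7 were tested, with 1 called on overexpression (lower) and 3 on knock-down (1 higher, 2 lower), or 14.3% and 42.9% beside 27.2% and 45.8%. The call on overexpression was that of the PGD2 receptor Ptgdr2, named after its values were seen (log2 fold change -0.26, edgeR adjusted p = 0.0142). In the fit of all 12 libraries Ptgdr2 was not called (edgeR adjusted p = 0.0594), and Ptgfrn was called in its place, higher by a log2 of 0.10 (edgeR adjusted p = 0.0479, against 0.0657 in the fit of 6 libraries). Tbxa2r, the thromboxane receptor, had 8, 20 and 10 counts in shScr and 29, 44 and 41 in shDnmt3a and rose by a log2 of 1.46 ± 0.30 (edgeR adjusted p = 0.000568). Not all shScr libraries reached the filter's minimum of 10, so Tbxa2r entered the test through the group where it is higher. The feature of Ptger1 spans 11135 bases against 4959 exonic bases in the annotation, and those of Ptgdr (4985 against 3187) and Slco2a1 (7750 against 4035) are also longer, so the counts of these 3 genes are uncertain. Of the transport and inactivation genes, 5 were tested, with 1 called on overexpression (lower) and 2 on knock-down, both lower (20% and 40%, beside 27.2% and 45.8%). Abcc4, an exporter of prostaglandins, stood at 68.5, 78.1 and 75.03 CPM in shScr and 51.0, 47.2 and 45.9 CPM in shDnmt3a and fell by 0.61 on the log2 scale (SE 0.05, edgeR adjusted p = 1.26e-08).

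**Figure D5:**
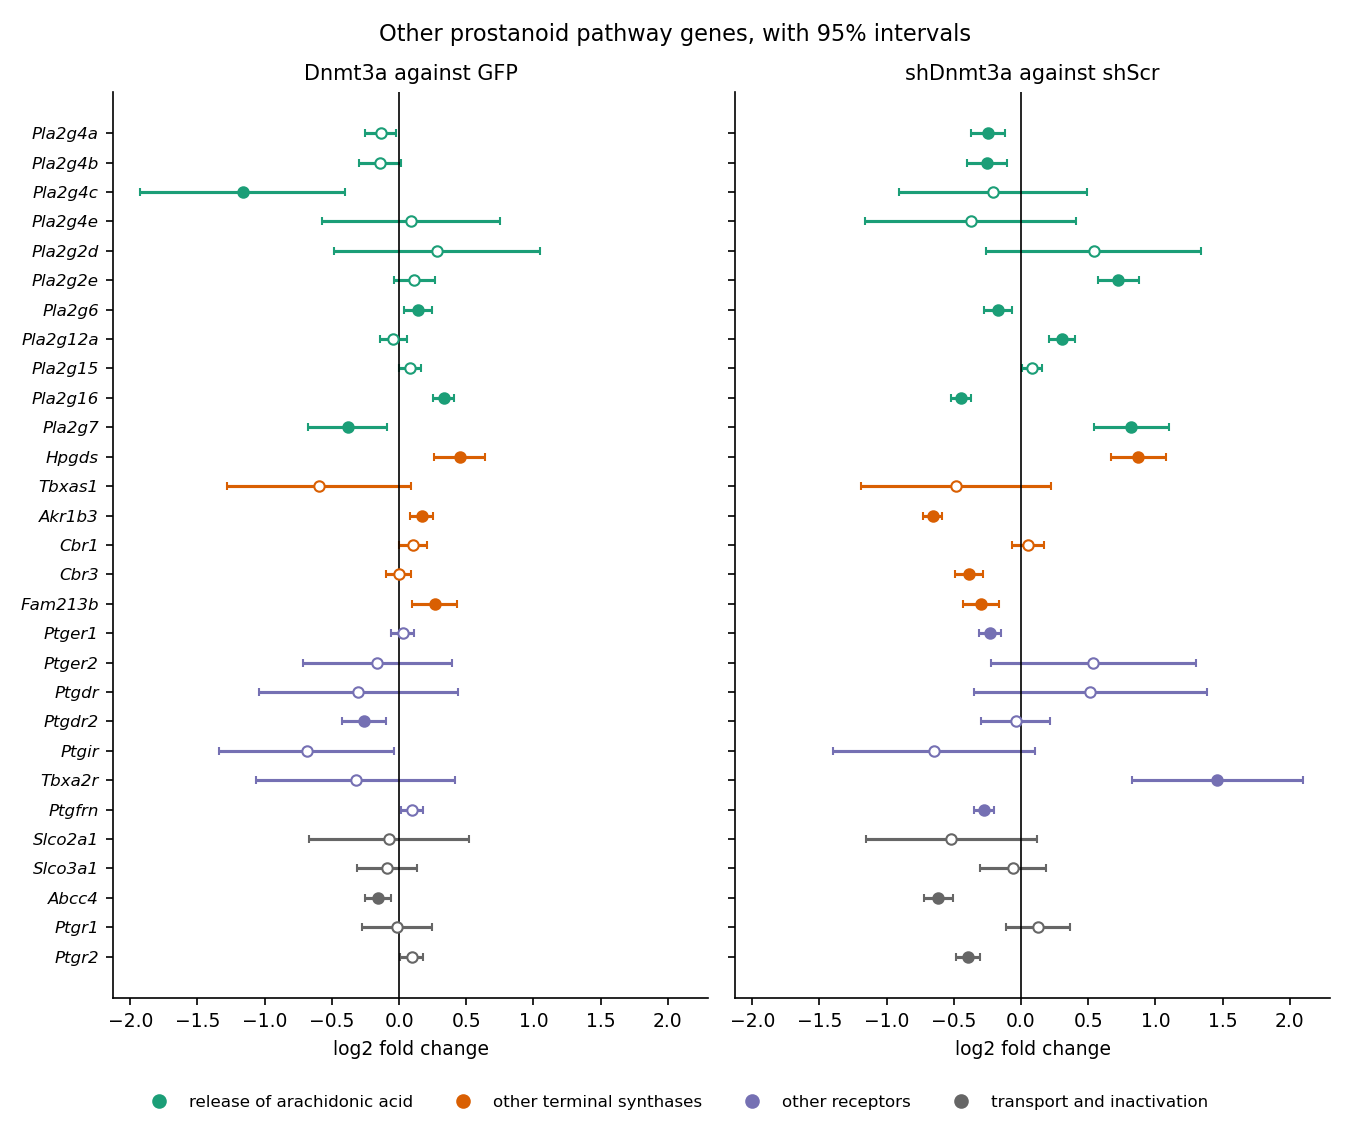
Log2 fold change (horizontal axes) with 95% intervals of the 29 tested genes of the rest of the pathway (vertical axis), coloured by role, on overexpression (left) and knock-down (right). Filled points were called at an adjusted p under 0.05, 9 on the left and 16 on the right, and Tbxa2r and Hpgds lie farthest right on knock-down. Tbxa2r (knock-down) and Pla2g4c (overexpression) entered the test through the group where each is higher.

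Markers of fat and of precursor cells moved with the groups as well. On overexpression 9 of 10 adipocyte markers rose (90%, beside 14.3% of all features called higher and 27.2% in either direction), and their summed level was 15490 to 16360 CPM in GFP and 19240 to 19990 in Dnmt3a. On knock-down 3 rose and 4 fell (70% in all, beside 45.8% of all features), with sums of 14160 to 15050 CPM in shScr and 13580 to 13930 in shDnmt3a. Of 8 preadipocyte and fibroblast markers, 1 rose and 3 fell on overexpression (50% in all, beside 27.2%) and 2 rose and 5 fell on knock-down (87.5%, beside 45.8%), where their sum was 8482 to 9036 CPM in shScr and 12520 to 12590 in shDnmt3a, most of it Col3a1. Their part in the levels of the prostaglandin genes was not tested.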

How the data were processed

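RNA-seq of 12 libraries was analysed. The authors depleted ribosomal RNA and prepared libraries with a TruSeq RNA v2 kit. Their notes and methods name mm9 as the build, TopHat2 (2.0.14) as aligner, SAMtools (0.1.19) and Picard (2.2.4) for handling alignments, and featureCounts (1.4.6) for assigning reads to features, with overlaps between features reduced beforehand. The deposited counts are raw whole numbers, and each of the 12 columns was matched to its sample by name. No source used here says whether counting used strand. The counts were tested with edgeR 4.0.16 in R 4.3.3 (TMM, default filter with a minimum count of 10, quasi-likelihood test, Benjamini-Hochberg adjustment), on the 6 libraries of a comparison or, for the order of groups and shScr against GFP, on all 12. Where a symbol had several features, the one with the highest mean count was used. SE values match the F statistic, and 95% intervals use its degrees of freedom.

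The members, the pathway and marker lists and the tests were chosen with earlier results of these data known. The rule named each of the 10 members, Dnmt3a, markers at or near 0, pathway genes called with a log2 fold change of 0.5 or more in size or not measured, and the 3 most alike genes of tested members with at least 2-fold between group means. Ptgdr2 and Fam213b were found under older symbols.

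Promoter windows were planned from RefSeq (GRCm38.p6, 9 of 10 members matched, not Ptgis). The printed windows instead precede the outermost protein-coding transcript start of GENCODE vM1 on NCBIM37, a choice made after seeing the data. Replicates of a group differed by more than sampling noise (chi-square per degree of freedom 2.44 to 10.1). The procedure was tested on simulated data. Alternatives were RLE size factors, DESeq2 1.42.0, other filters, a fit of all 12 libraries, summed symbols, a replicate block and leaving out each library.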

Additional observations from a re-analysis of the deposited data

How the results depend on the processing

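On knock-down and between the controls, the numbers of members called higher and lower, with Ptgs2 counted, were the same under every alternative run. Ptgs2 was chosen for its change and carries no test. Of all features, 45.8% were called on knock-down, 46.5% between the controls and 27.2% on overexpression. On overexpression, with Ptgs2 counted, 2 members were higher and 2 lower, and both numbers held under every alternative but leaving out a library, which gave 1 to 2 higher and 1 to 3 lower. The call of Ptgfr was lost without GFP replicate 1 or any Dnmt3a library, that of Ptger4 without GFP replicate 3, and Ptgs1 gained a call without GFP replicate 2. For the rest of the pathway, 5 higher and 4 lower on overexpression became 3 to 6 and 1 to 3 without a library, with 3 higher without Dnmt3a replicate 2, 1 lower without GFP replicate 3 and 2 lower without any 1 Dnmt3a library. DESeq2 called 4 higher and 2 lower, and the fit of all 12 libraries called 6 higher and 3 lower and exchanged the lower call of Ptgdr2 for a higher call of Ptgfrn. The filter of 1 CPM in 3 libraries left out Pla2g4c on overexpression and Tbxa2r on knock-down. With it 3 pathway genes were lower on overexpression and 4 higher on knock-down. Ptges turned to a log2 fold change of -0.00100 with the filter of 1 CPM in 3 libraries and ran from -0.016 to 0.025 without a library, and Ptges3 ran from -0.074 to 0.052, both near 0 and not called. The cause of the other changes was not tested.

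The replicate numbers did not pair the libraries (correlations of same-numbered deviations -0.0616 to 0.0037, others -0.0637 to 0.0653). With the replicate block the numbers of members called, with Ptgs2 counted, stayed at 2 higher and 2 lower on overexpression. They stayed at 4 and 3 on knock-down and at 3 and 3 between the controls. Ptgs2 carries no test, and the main fits without it gave 2 and 1, 3 and 3, and 3 and 2. Of all features, 27.2%, 45.8% and 46.5% were called in those fits. The numbers for the rest of the pathway stayed at 5 and 4 and at 5 and 11. Depth limits Ptger3, Hpgd, Pla2g4c and Tbxa2r, which rest on few counts, and 3 libraries a group limit all precision.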
